A study of Mus musculus with 16 samples.

Results

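The insulin-like growth factor 1 ligand Igf1, the receptors Igf1r and Insr, and 6 genes of secreted binding proteins, Igfbp2 to Igfbp7, were followed across the cell types of the mouse testis at postnatal day 2. These 9 genes were taken by name, and all 9 are among the 30451 genes of the table. IGF1 acts on neighbouring cells by binding IGF1R, a receptor tyrosine kinase whose close relative INSR is the receptor of insulin. Most IGF outside cells is held by binding proteins, which lengthen its life and keep it from the receptor until proteases cut them; IGFBP7 binds IGFs only weakly. In the testis, signals through both receptors are known to promote the division of Sertoli cells, the somatic cells that surround the germ cells.

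Whole testes of wild-type mice and of Ddx5 conditional knockout mice were dissociated at P2 and single cells were captured in droplets. The knockout joins floxed Ddx5 alleles with a Cre transgene driven by Mvh (Ddx4), which is active in germ cells, so somatic cells are not the target of the deletion. The study's methods also count Ddx5+/- males among its controls and use an Oct4-GFP allele, and the labels do not say which mice of these libraries carried either. The labels give 8 libraries per genotype, but a barcode in the table carries only 1 of 2 suffixes, so that each genotype is 1 library here, no test could be run and no p-value is given. Barcodes with fewer than 2000 genes, or with over 10% of their unique molecular identifiers (UMIs) from mitochondrial genes, were dropped, and 6329 and 4950 cells remained, with medians of 11170 and 11668 UMIs. Transcripts of the targeted gene Ddx5 in germ cells went against the label, with 1152 CPM (UMIs scaled to a library sum of 1000000) in wild type and 1736 CPM in the other library (ratio 1.51, 95% interval 1.40 to 1.62), so the second library is named by its label from here on, as the library labelled knockout. The paper reports lower Ddx5 mRNA in sorted P2 germ cells by single-cell qRT-PCR, a different measure. It also reports fewer germ cells in the knockout. The germ cell gate described below held 1.975% of wild-type cells and 0.242% of cells with the knockout label. Genotype and library cannot be told apart in any comparison between the libraries.

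Cells were gated on UMIs of marker genes. Sertoli cells had at least 3 UMIs of Amh (2256 wild-type cells, and 1635 with the knockout label), and Leydig cells, the steroid producers between the tubules, had at least 20 UMIs of Cyp11a1, Cyp17a1 and Hsd3b1 together (177 and 143). Peritubular myoid cells, the contractile sheath of the tubules, had at least 5 UMIs of Acta2 and 2 of Myh11 (764 and 524). Interstitial stroma had at least 1 UMI of Pdgfra and at most 2 of Amh (3590 and 3005), macrophages had at least 5 UMIs of C1qa, C1qb and C1qc (31 and 23), and germ cells had at least 3 of the 4 genes Dazl, Ddx4, Mael and Stk31 (125 and 12). Further marker genes, 4 to 6 per gate, were highest in their own gate except for Clu, Tcf21, Hsd17b3 and Des in wild type and Hsd17b3, Des and Nanos3 in the library labelled knockout. The gates overlap, since 1152 of 1288 myoid cells also passed the stroma gate, 28.5% of germ cells passed the Sertoli gate and 20.4% of macrophages passed the stroma gate. Germ cells with the knockout label held 1 UMI of Amh in all, so the germ cells in the Sertoli gate were all wild-type. The endothelial genes Pecam1, Cdh5, Egfl7, Emcn and Plvap did not form a gate of their own. Of the 461 cells with at least 5 UMIs of them, 389 lay in the stroma gate. Their summed CPM in stroma was mostly Cdh5, at 123.5 of 144 CPM in wild type and 127 of 143 CPM in the library labelled knockout. Pecam1 had 1.0 and 1.24 CPM in stroma and 9.26 and 9.09 CPM in Sertoli cells, so the 389 cells cannot be taken as endothelium. The libraries share 12 barcode sequences.

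In GRCm38 (GENCODE M21 annotation) Igf1 lies on chr10:87858265-87937042, Igf1r on chr7:67952827-68233668 and Insr on chr8:3122061-3279617. Igfbp3 (chr11:7206086-7213923) and Igfbp4 (chr11:99041244-99054392) are far apart on 1 chromosome, while Igfbp6 lies on chr15:102144362-102149511 and Igfbp7 on chr5:77349240-77408041. Igfbp2 (chr1:72824503-72852474, plus strand) and Igfbp5 (chr1:72857932-72874884, minus strand) are neighbours whose 3′ ends face each other across 5457 bases. The first was highest in Leydig cells and the second in myoid cells, as described further on. For this reason the 250 bases before the RefSeq starts of both are shown (build GRCm38.p6, Igfbp2 chr1:72824230-72824479, the first of 2 listed starts, and Igfbp5 chr1:72874866-72875115), each 5′ to 3′ on the strand of its gene, with matches to GGGCGG (either strand) and TATTTAA (either strand) in capitals.
Igfbp2: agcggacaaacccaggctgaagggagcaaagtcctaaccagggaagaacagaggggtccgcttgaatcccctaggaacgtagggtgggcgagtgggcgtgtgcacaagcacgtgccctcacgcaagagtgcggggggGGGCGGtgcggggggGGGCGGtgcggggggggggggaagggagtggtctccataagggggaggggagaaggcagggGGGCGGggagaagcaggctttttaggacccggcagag
Igfbp5: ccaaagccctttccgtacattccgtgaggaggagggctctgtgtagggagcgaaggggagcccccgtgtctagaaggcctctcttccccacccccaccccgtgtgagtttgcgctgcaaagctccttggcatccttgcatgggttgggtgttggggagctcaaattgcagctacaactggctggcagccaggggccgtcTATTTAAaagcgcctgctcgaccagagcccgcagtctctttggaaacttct
The Igfbp2 promoter shown held 3 matches to GGGCGG, a letter run found in 32.7% of the 32851 promoter windows of this length, and no match to TATTTAA. The window before the second listed start of Igfbp2 held 0 matches to either. The Igfbp5 promoter held no GGGCGG and 1 TATTTAA, found in 4.18% of windows, whose first base is 51 bases before the RefSeq start. TATAAA, found in 12.4% of windows, was in neither of them, but 1 match each was found before Igfbp4 and Igfbp6. A match is a string of letters and not evidence of a bound factor. RefSeq promoters were found for 8 of the 9 genes.

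All 9 genes were detected in both libraries, and they covered a wide range of levels. UMIs are counted at the 3′ end of captured mRNAs, so CPM was not scaled by gene length. How well each gene is captured is not known, so CPM of different genes compare UMIs and not mRNA numbers. Over all kept cells Igf1 stood at 422 CPM in wild type and 462.8 CPM in the library labelled knockout, and Igfbp7 at 422.7 and 426.5 CPM. Igfbp4, Igfbp6 and Igfbp5 followed with 303, 284 and 188 CPM in wild type. Igf1r was lower at 105 CPM, and Insr, Igfbp2 and Igfbp3 lay between 16.0 and 22.0 CPM. The 4 genes with the most UMIs are thus the ligand and 3 binding proteins, and the receptors gave fewer UMIs than these.

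**Figure D1:**
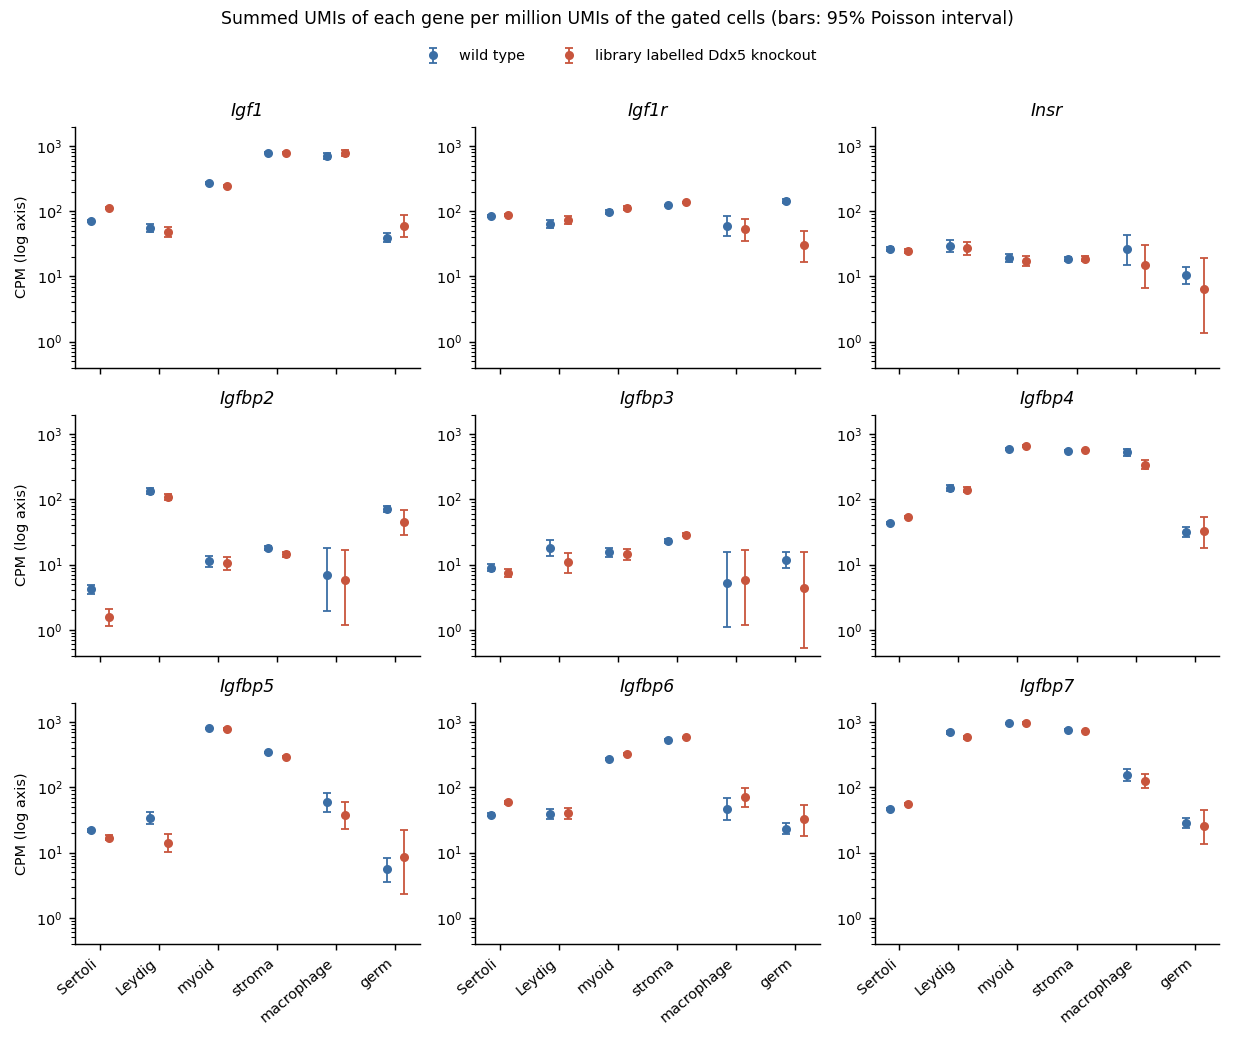
CPM of the 9 genes (log axis) in 6 gated cell types, wild type in blue and the library labelled knockout in red, with bars for the 95% Poisson interval of the UMI sum. Igf1, Igfbp4, Igfbp5, Igfbp6 and Igfbp7 reached at least 544 CPM in stroma or myoid cells, while Insr lay at or below 29.6 CPM in every gate.

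The ligand Igf1 was highest in stroma, with 796.5 CPM in wild type (interval 787.7 to 805.4) and 797.6 CPM in the library labelled knockout (788.0 to 807.3). Macrophages held 712 CPM (644.2 to 784.7) and 781 CPM (707 to 860). They were just below stroma in wild type, whereas the intervals of both gates overlapped in the library labelled knockout. Myoid cells followed with 268 and 244 CPM, and Sertoli, Leydig and germ cells were lower, between 39.6 and 112 CPM. In the cells that passed 1 gate only, stroma held 969 and 950.5 CPM and macrophages 830 and 886.5 CPM, whereas Leydig cells held 2.12 and 7.32 CPM. When every cell was thinned to 5000 UMIs, a UMI of Igf1 was seen in 84.3% and 82.3% of stroma cells and in 70.0% and 87.0% of macrophages, but in 12.5% and 16.6% of Sertoli cells and 8.48% and 7.75% of Leydig cells. At the same depth the stromal gene Dcn was seen in 15.8% and 20.8% of Sertoli cells, a type that should lack it, against 91.7% and 94.2% of stroma. Dcn is the more abundant gene in stroma, at 2372 and 2633 CPM, so these shares do not settle by themselves whether Sertoli cells hold Igf1 of their own. The median depth before thinning was 13711 and 15847 UMIs in Sertoli cells and 9838 and 9933 UMIs in stroma.

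The 2 receptors were found in every gate, at levels that varied less than those of the ligand. Igf1r was highest in germ cells of wild type, at 144 CPM (133 to 155), followed by stroma at 123 CPM (119.7 to 126.7), myoid cells at 97.4 CPM, Sertoli cells at 85.0 CPM, Leydig cells at 63.4 CPM and macrophages at 59.8 CPM. In the library labelled knockout stroma came first at 137 CPM (133 to 141), and germ cells came last at 30.2 CPM (16.5 to 50.7). Of the neighbours in these orders, Leydig cells and macrophages had overlapping intervals in both libraries, as did macrophages and germ cells in the library labelled knockout. The other gates kept 1 order in both libraries, while germ cells were first in one and last in the other. With at most 5% mitochondrial UMIs, which left 52 wild-type germ cells, stroma was highest in both libraries. Insr was highest in Leydig cells, at 29.6 CPM (23.7 to 36.4) and 27.1 CPM (21.5 to 33.9), and Sertoli cells at 26.3 and 24.4 CPM did not differ from them beyond counting error. Macrophages had 26.4 and 15.2 CPM of Insr, on 15 and 8 UMIs. Stroma and myoid cells lay between 17.6 and 19.1 CPM, and germ cells at 10.4 and 6.48 CPM. Igf1r gave 6.58 and 7.25 times the UMIs of Insr in stroma but 3.23 and 3.62 times in Sertoli cells and 2.15 and 2.69 times in Leydig cells. The intervals of this quotient in stroma (6.08 to 7.12 and 6.67 to 7.89) did not overlap those in Sertoli cells (3.01 to 3.48 and 3.33 to 3.94).

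Igfbp2, a binding protein of fetal tissues, had a pattern unlike that of the other binding proteins. Leydig cells held 136 CPM (123 to 150) in wild type and 109 CPM (96.8 to 121) in the library labelled knockout. Germ cells came next with 71.3 and 45.3 CPM, and stroma with 18.2 and 14.5 CPM. Sertoli cells held 4.2 and 1.56 CPM, and macrophages 7.03 and 5.71 CPM on 4 and 3 UMIs, with overlapping intervals, so the low end of the order is not resolved. Over the 12 profiles of 6 cell types in 2 libraries, the log2 level of Igfbp2 correlated with that of Igf1 at r = -0.60 and with that of Igfbp5 at r = -0.36; these are descriptions over profiles that share their cells in part.

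Igfbp3, the main carrier of IGF in blood, was low in the testis. Stroma was highest with 22.8 CPM (21.3 to 24.4) and 28.9 CPM (27.1 to 30.8). Myoid cells had 15.5 and 14.5 CPM and Leydig cells 17.9 and 10.8 CPM, with overlapping intervals in both libraries. In wild type the Leydig interval (13.5 to 23.4) also overlapped that of stroma, so the first place there is not resolved. With at most 5% mitochondrial UMIs, which left 42 and 30 Leydig cells, Leydig cells were highest in both libraries, and in cells of 1 gate only myoid cells were highest in wild type. The remaining gates lay below 12 CPM, and the sums in macrophages rest on 3 UMIs in each library.

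Igfbp4, an inhibitor of IGF action that PAPPA cleaves, was highest in myoid cells with 597 CPM (582 to 612) and 662 CPM (644 to 681.5). Stroma held 561 and 574 CPM, and macrophages 526 CPM (468 to 589) and 343 CPM (295 to 397). Leydig cells had 150.1 and 141 CPM, above Sertoli cells with 43.4 and 53.6 CPM, and in cells of 1 gate only they had 84.8 and 130.1 CPM against 36.1 and 48.0 CPM. Macrophages were the only gate outside stroma and myoid cells with over 300 CPM of Igfbp4 in both libraries, and those that passed 1 gate only held 518 and 309 CPM.

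Igfbp5, a binding protein that also attaches to extracellular matrix, was the only one of the 9 genes with a leading cell type, here a gate that holds at least 2 times the CPM + 10 of the next gate in both libraries. Myoid cells held 815 CPM (797 to 832.5) and 785 CPM (764.5 to 806), against 348 and 297 CPM in stroma. By the same rule 7.89% of the 20263 genes with at least 20 UMIs have a leading type, so 1 of 9 is near the share of all genes. The stroma value was divided between its cells. Stroma cells that also passed the myoid gate held 873 and 809 CPM, and stroma cells that passed no other gate held 212 and 183 CPM. Between cells Igfbp5 was uneven in stroma, where the top 10% of cells held 56.5% and 58.0% of the summed per-cell level, against 31.4% and 31.6% in myoid cells. The median myoid cell had 689 and 613 CPM of Igfbp5, and the median stroma cell 82.2 and 63.9 CPM.

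Igfbp6, which prefers IGF2 over IGF1, was highest in stroma with 544 CPM (536.5 to 551) and 586 CPM (578 to 594). Myoid cells held 275 and 328 CPM, and every other gate was at or below 70.5 CPM. The order turned around that of Igfbp5 where the gates overlap. Stroma cells outside other gates held 635 and 662 CPM of Igfbp6, and stroma cells that also passed the myoid gate held 293 and 341 CPM.

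Igfbp7, found in the matrix around vessels and smooth muscle, was the highest of the binding proteins in every somatic gate but Sertoli cells of the library labelled knockout and macrophages. Myoid cells held 959 CPM (940 to 979) and 973 CPM (950.5 to 996), stroma 773 and 733.5 CPM, and Leydig cells 698 CPM (668.5 to 728.5) and 587 CPM (559 to 615.5). In Leydig cells Igfbp7 was thus nearly as high as in stroma, which sets it apart from Igfbp5 and Igfbp6, at 14.3 to 40.4 CPM there. Leydig cells in no other gate held 642 and 598 CPM. After thinning, a UMI of Igfbp7 was seen in 93.2% and 90.1% of Leydig cells but in 9.70% and 12.5% of Sertoli cells.

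**Figure D2:**
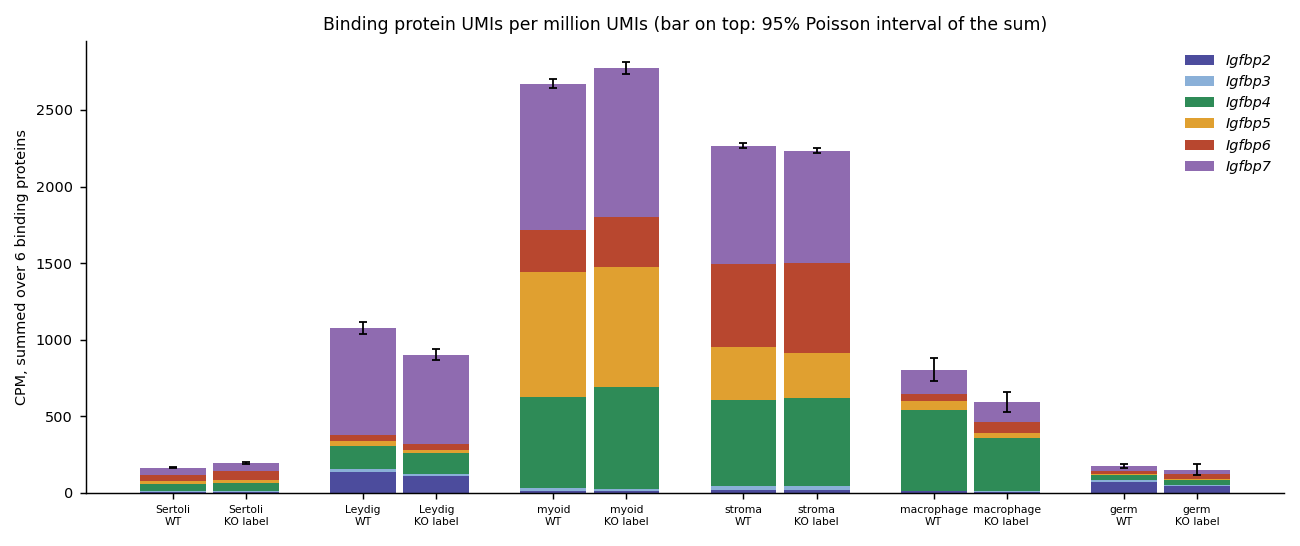
Summed CPM of Igfbp2 to Igfbp7 by gate and library (WT, wild type; KO label, library labelled knockout), stacked by gene, with a bar for the 95% Poisson interval of the sum. The sum runs from 149 CPM in germ cells to 2773 CPM in myoid cells, both with the knockout label.

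As a pool, the 6 binding proteins gave 2673 and 2773 CPM in myoid cells and 2267 and 2234 CPM in stroma. Leydig cells had 1075 CPM (1038 to 1113) and 902 CPM (868 to 937), macrophages 801.5 and 590.5 CPM, Sertoli cells 164 and 194 CPM, and germ cells 173 and 149 CPM. The leading gene of the pool depended on the gate. Igfbp7 made up 64.9% and 65.1% of the pool in Leydig cells and Igfbp4 65.6% and 58.1% in macrophages. Igfbp2 made up 41.3% (37.7% to 44.9%) and 30.4% (19.9% to 42.7%) in germ cells and under 1% in myoid cells, stroma and macrophages. In stroma Igfbp7, Igfbp4 and Igfbp6 each gave between 24.0% and 34.1%, and in myoid cells Igfbp7 and Igfbp5 together led with 35.9% and 30.5% in wild type. Single cells held several of these genes at once. At 5000 UMIs per cell, 3 or more of the 6 were seen in 91.3% and 92.6% of myoid cells and 85.5% and 85.9% of stroma cells, against 25.4% and 23.2% of Leydig cells and 4.47% and 6.50% of Sertoli cells.

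**Figure D3:**
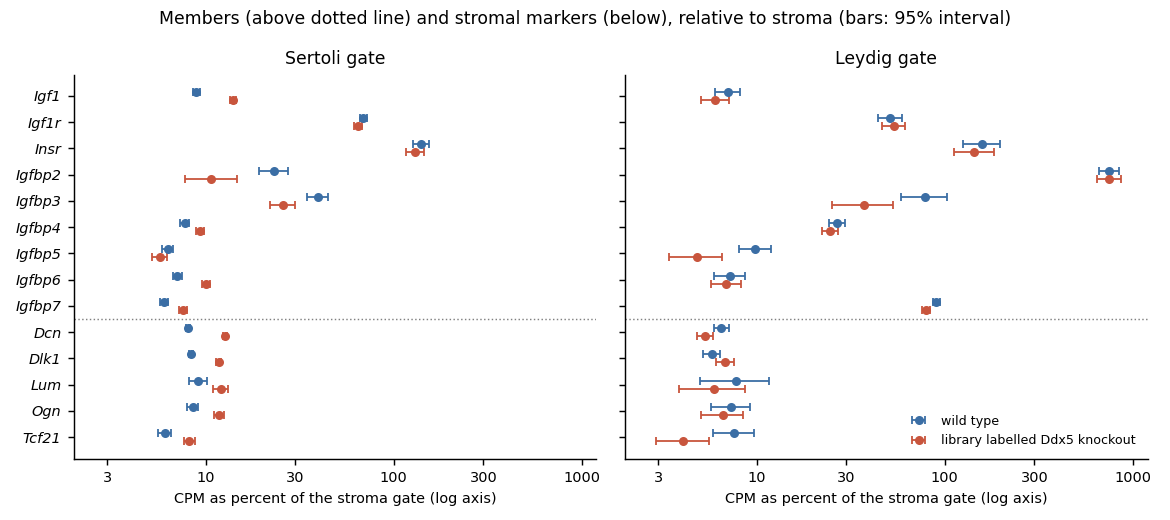
CPM in the Sertoli gate (left) and the Leydig gate (right) as a percent of the CPM in the stroma gate of the same library (log axis), for the 9 genes above the dotted line and 5 stromal markers below it, with bars for the 95% interval. In Sertoli cells Igf1 and Igfbp4 to Igfbp7 lie at 5.73% to 14.0%, the highest being Igf1 in the library labelled knockout, whereas Igf1r and Insr lie at 64.6% to 140.5%.

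To weigh the low values, the level in each gate was set against stroma beside 5 stromal markers (Dcn, Ogn, Dlk1, Lum and Tcf21). In Sertoli cells these markers lay at 6.08% to 9.11% of their stroma level in wild type and at 8.22% to 12.7% in the library labelled knockout. Igf1 at 8.95%, Igfbp4 at 7.75%, Igfbp5 at 6.29%, Igfbp6 at 7.07% and Igfbp7 at 6.03% lay in or beside that range in wild type, and whether Sertoli cells hold transcripts of their own of these genes was not tested. In the library labelled knockout Igfbp4, Igfbp6 and Igfbp7 were at 9.34%, 10.1% and 7.60% and Igfbp5 at 5.73%, at or below the markers, but Igf1 was at 14.0% (13.5% to 14.5%), above Dcn, the highest of them (12.4% to 12.9%). In wild type the genes above the markers were Insr at 140.5% (127.5% to 155%), Igf1r at 69.0% (66.0% to 72.2%), Igfbp3 at 39.5% (34.7% to 44.9%) and Igfbp2 at 23.1% (19.3% to 27.5%). In cells of 1 gate only, wild-type Igfbp2 was lower, at 1.32 CPM in Sertoli cells and 14.6 CPM in stroma. The markers were not computed in those cells, so its place against them there is not known. Insr, Igf1r and Igfbp3 also stood above the markers in the library labelled knockout, at 130%, 64.6% and 25.7%, while Igfbp2 at 10.8% was among them. Both receptors thus stood far above the stromal markers in Sertoli cells of both libraries, and 4 of the binding proteins did not. In Leydig cells the stromal markers lay at 4.08% to 7.77% over both libraries. Igf1 (7.0% and 6.02%) and Igfbp6 (7.21% and 6.89%) were among them, and Igfbp4 (26.8% and 24.6%), Igfbp7 (90.3% and 80.0%) and Igfbp2 (747% and 751%) were well above them. Igfbp5 lay at 9.82% in wild type, above the markers, and 4.80% with the knockout label, among them. In cells of 1 gate only, wild-type Igfbp5 was lower, at 7.95 CPM in Leydig cells and 212 CPM in stroma.

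The comparison of the libraries asks whether IGF genes of the somatic cells differ when the germ cells are targeted. A gene was counted when its CPM + 10 differed by over 1.5-fold, among genes with at least 20 UMIs in the gate. In stroma none of the 9 genes passed (background 0.181% of 17129 genes), nor in myoid cells (0.362% of 13808 genes) or Sertoli cells (0.42% of 16427 genes). In Leydig cells 1 of 9 passed (1.1% of 11251 genes), in macrophages 1 of the 7 with enough UMIs (14.6% of 6498 genes), and in germ cells 2 of 9 (53.3% of 12394 genes). The share in germ cells is below that of all genes. The median log2 ratio of the 9 genes lay between -0.27 and 0.05 over the 6 gates and that of all genes between -0.42 and 0.00.

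**Figure D4:**
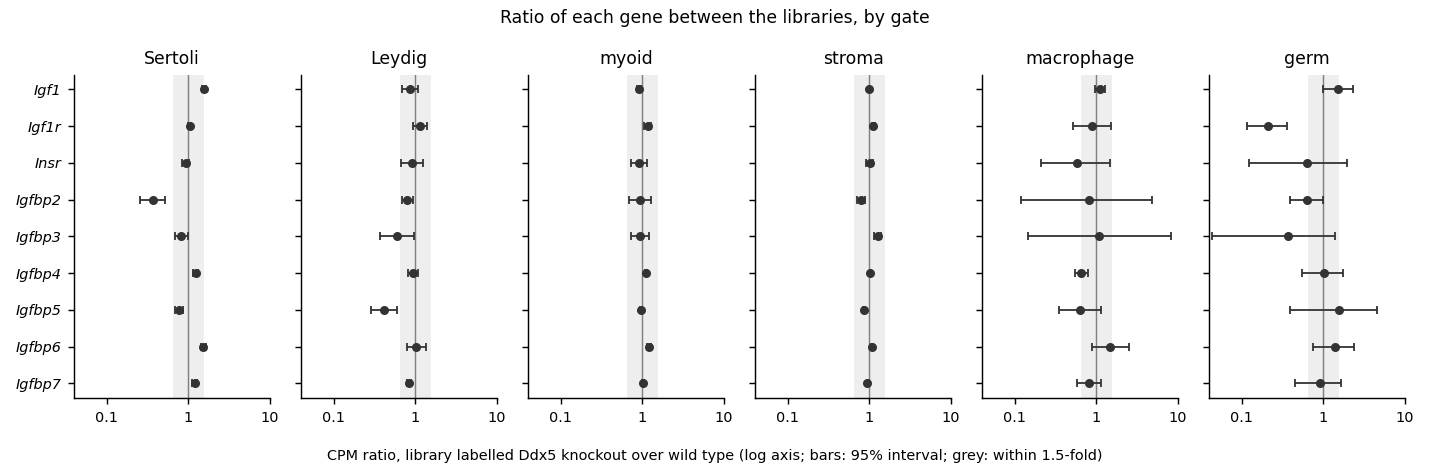
CPM ratio of the library labelled knockout over wild type (log axis) for the 9 genes in each gate, with bars for the 95% counting interval and a grey band for ratios within 1.5-fold. In stroma and myoid cells the 18 ratios lie between 0.794 and 1.27, and Igf1r in germ cells lies at 0.210.

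In stroma the ratios of the 9 genes ran from 0.794 for Igfbp2 (0.706 to 0.893) to 1.27 for Igfbp3 (1.16 to 1.39), and Igf1 was at 1.0 (0.985 to 1.02). In myoid cells they ran from 0.911 for Igf1 to 1.19 for Igfbp6. Several of these intervals exclude 1, but they cover counting error only, and the spread between animals is not known. The 4 red blood cell genes went from a summed 76.3 to 1005 CPM in stroma and from 79.1 to 1058 CPM in myoid cells, and their part in these ratios was not tested.

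In Sertoli cells Igf1 was 71.3 CPM in wild type and 112 CPM in the library labelled knockout, a ratio of 1.57 (1.49 to 1.65). With 10 CPM added the log2 ratio is 0.58, just inside the limit, and Igf1 passed it in cells of 1 gate only, with doubled gate thresholds, with CPM outside ribosomal protein and mitochondrial genes, and with 1 CPM added in place of 10. Igfbp6 had a ratio of 1.53 (1.43 to 1.65), Igfbp4 1.23 and Igfbp7 1.20, all with intervals above 1. Igfbp5, also a stromal gene, was at 0.778 (0.694 to 0.871). The 5 stromal markers moved with them, from a summed 411 CPM to 616 CPM in Sertoli cells (ratio 1.5, single markers 1.20 to 1.98), as did the red blood cell genes, from 141.5 to 318 CPM, and their part in the result was not tested. Igf1r (1.04) and Insr (0.929), the receptors that stand above the stromal markers in Sertoli cells, had intervals that include 1. Igfbp2 was lower, from 155 UMIs to 45 UMIs (ratio 0.371, 0.260 to 0.520), and in Sertoli cells of 1 gate only it was 1.32 and 1.15 CPM. Germ cell genes were lower with it in the Sertoli gate, the 5 markers from 23.9 to 7.91 CPM in sum and the gate genes Dazl from 40.8 to 0.207 CPM and Mael from 10.9 CPM to 0 UMIs, and their part was not tested.

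In Leydig cells Igfbp5 passed the limit, with 34.2 CPM (27.9 to 41.5) in wild type and 14.3 CPM (10.2 to 19.4) in the library labelled knockout, a ratio of 0.417 (0.283 to 0.604). Myoid markers moved with it in sum, from 99.3 to 60.2 CPM, with single ratios from 0.388 for Tagln to 1.45 for Actg2. Red blood cell genes went from 4.98 to 1414 CPM, and the part of these genes was not tested. Leydig cells of 1 gate only held 7.95 and 2.82 CPM of Igfbp5, and the gene did not pass there, nor when doublets were left out. Igfbp2 had a ratio of 0.799 (0.687 to 0.928) and Igfbp7 of 0.841 (0.788 to 0.897), while Igf1r and Insr had intervals that include 1.

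In macrophages Igfbp4 passed, with 299 UMIs in 31 cells and 180 UMIs in 23 cells (ratio 0.652, 0.539 to 0.788). Stromal markers moved the other way there in sum, from 286.5 to 819 CPM, though Lum went from 12 UMIs to 0 UMIs. Myoid markers were lower with Igfbp4, from 170.5 to 70.5 CPM in sum, and so were 4 red blood cell genes, from 2758 to 7.62 CPM in sum, and the Leydig gate genes Cyp11a1 (879 to 341 CPM) and Hsd3b1 (504.5 to 173 CPM). The 5 macrophage markers went from 10046 to 11951 CPM in sum, with Lyz2 at 1.83, Tyrobp at 0.996 and Mrc1 at 0.639. The part of these markers was not tested. Igfbp4 did not pass with doubled gate thresholds or when every cell had the same weight. Igf1, the other gene that was high in macrophages, had a ratio of 1.10 (0.954 to 1.26).

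In germ cells Igf1r was 144 CPM in wild type and 30.2 CPM in the library labelled knockout, a ratio of 0.210 (0.114 to 0.356). The sums are 621 UMIs in 125 cells, of which 108 held at least 1 UMI, and 14 UMIs in 12 cells, of which 7 did. Germ cells of 1 gate only gave 146.5 and 30.4 CPM. The other gene that passed, Igfbp3, rests on 51 and 2 UMIs, and its interval (0.0432 to 1.39) includes 1. Germ cell markers were unequal too, with a summed 443 CPM and 179 CPM. Sall4 made up most of that difference (251.7 and 32.4 CPM) and Nanos3 had 0 UMIs in the library labelled knockout, while Dnd1 (72.2 and 82.0 CPM) and Pou5f1 (23.6 and 19.4 CPM) had overlapping intervals. The 6 Sertoli markers summed to 1077 CPM in germ cells of wild type and to 60.4 CPM with the knockout label. The part of these markers in the difference of Igf1r was not tested.

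Stroma and Sertoli cells were then divided by UMIs of the cycling genes Mki67, Top2a, Cenpf and Cdk1, with at least 3 counted as cycling and 0 as other. In stroma, cycling cells had less Igf1, with 579 CPM against 938 in wild type (ratio 0.617, 0.601 to 0.635) and 605 against 917 in the library labelled knockout (0.660, 0.641 to 0.680). Igfbp6 was also lower, with 381 against 651 CPM (0.585) and 382 against 697 CPM (0.549). These 2 of the 9 genes passed the limit in both libraries, where 5.15% of 16590 genes did. Igfbp3 was at 0.695 and 0.560 and passed in the library labelled knockout alone. Igfbp7 was nearly level, at 0.902 and 0.960, and Igf1r was at 0.780 and 0.847. Of the cycling stroma cells 25.1% and 21.5% also passed the myoid gate, against 15.8% and 11.6% of the other stroma cells. Cycling stroma cells were also deeper, with medians of 13957 against 9150 UMIs in wild type and 14575 against 9353 with the knockout label. Doublet calls were 37 of 894 cells against 12 of 1980, and 32 of 669 against 21 of 1710. The part of the overlap and of depth was not tested. Igf1 and Igfbp6 also passed with doublets left out. With cells of 1 gate only Igfbp6 passed and Igf1 did not. In Sertoli cells 0 of the 9 genes passed in both libraries (2.67% of 15960 genes), and Igf1r was at 1.07 and 1.02 and Insr at 1.13 and 1.15. Igfbp5 passed in wild type alone, at 2.10 (1.63 to 2.76) against 0.947 (0.733 to 1.24) in the library labelled knockout. Of the wild-type cycling Sertoli cells 24 of 1186 also passed the myoid gate and 141 were called doublets, against 3 and 29 of the 513 others, and their part was not tested.

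**Figure D5:**
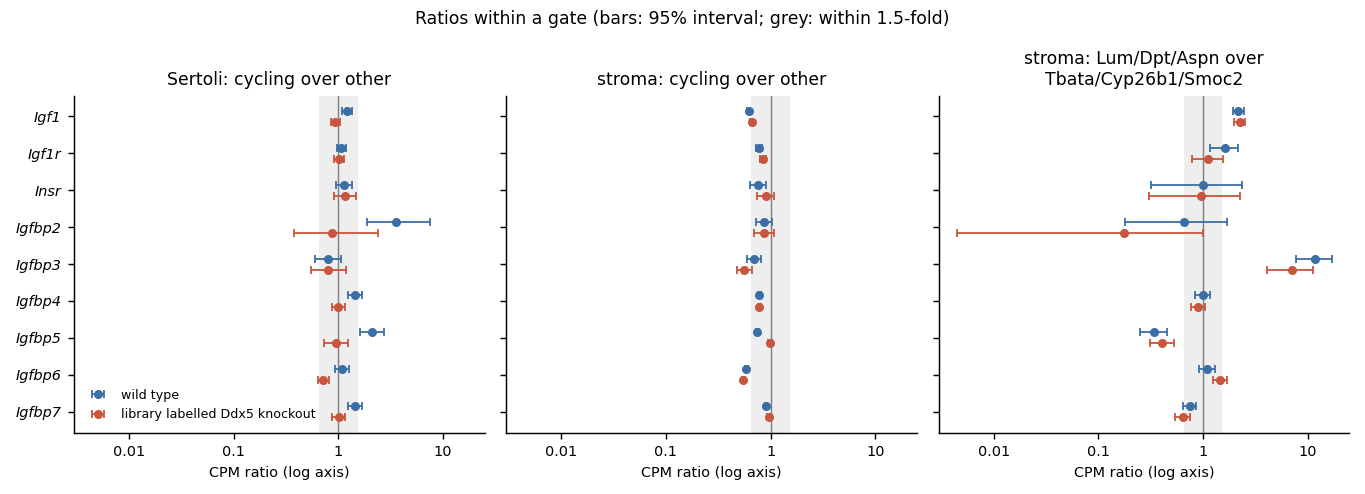
CPM ratios within a gate (log axis) for the 9 genes in each library, with bars for the 95% counting interval and a grey band for ratios within 1.5-fold. Cycling stroma lies below 1 for Igf1 and Igfbp6 in both libraries, and the Lum/Dpt/Aspn subset of stroma lies at 11.6 and 7.0 for Igfbp3.

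Stroma was also divided by 2 marker sets, cells with at least 2 UMIs of Lum, Dpt and Aspn and none of Tbata, Cyp26b1 and Smoc2 (34 and 31 cells), and cells with the reverse (1298 and 947). The first subset had more Igfbp3, with 131 against 11.3 CPM in wild type (ratio 11.6, 7.80 to 16.9) and 70.8 against 10.1 CPM in the library labelled knockout (7.0, 4.12 to 11.4). It also had more Igf1, at 1083 against 499 CPM and 917 against 410.5 CPM (2.17 and 2.23). Igfbp5 was lower, at 189 against 553 CPM and 212 against 521 CPM (0.341 and 0.408). These 3 genes passed in both libraries, where 6.79% of 14667 genes did, and the same 3 passed in cells of 1 gate only. Igfbp4 was at 0.994 (0.839 to 1.17) and 0.901 (0.764 to 1.06), intervals that include 1. Igfbp7 was at 0.746 and 0.641, and Igf1r at 1.61 and 1.12. The second subset holds 34.0% and 33.4% of cells that also passed the myoid gate and the first holds none. In wild type the first subset held 34 UMIs of Igfbp3 and the second 164, of 889 in the stroma gate. In the library labelled knockout these sums were 20, 109 and 958. Most Igfbp3 UMIs of stroma thus lay in cells of neither subset.

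The genes with the most similar profiles over the 12 gates and libraries were named by Pearson's r of log2(CPM + 10) among 6501 genes that reach 50 CPM. For Igfbp5 they were Mgp, a matrix protein that inhibits calcification (r = 0.99, with 1650 and 1646 CPM in myoid cells), Col15a1 and Ccn4. For Igfbp6 they were St8sia2, Rarres2 and Thbs2 (all above 0.99), and for Igf1 Timp2, Nrp1 and Itga4 (0.95 to 0.97). Igfbp4 was nearest to Klf3, Selenof and Cd302, Igfbp7 to Hoxd8, Tmem109 and Tcf4, and Igfbp3 to Ptdss2, Pfn2 and Kifap3. Igfbp2 was nearest to Map1lc3a, Foxo1 and Ahsa1, Igf1r to Tnfaip1, Prkd3 and Emc10, and Insr to Uqcc3, Rabl6 and Dmac1. With Spearman's rho at most 2 of the 3 names recurred for any gene, and none for 7 of the 9, so the names depend on the measure. Among the 9 genes the closest pair was Igfbp5 and Igfbp6 (r = 0.91), followed by Igfbp4 and Igfbp5 (0.85) and Igf1 and Igfbp4 (0.82).

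The wider IGF pathway was described with 51 other genes of ligands, receptors, proteases, adaptors and growth hormone signalling. Of 49 with enough UMIs, 8 had a leading type, against 7.89% of all genes. Grb14, an adaptor that inhibits the insulin receptor, led in Leydig cells with 476.5 and 425 CPM, and so did the kinase Akt2 with 289 and 312 CPM. Socs2, an inhibitor of growth hormone signalling, led in Sertoli cells with 541 and 553 CPM. Adam12, a protease that cuts IGFBP3 and IGFBP5, led in stroma with 39.2 and 39.6 CPM, and the adaptor Grb2 in macrophages with 199 and 194 CPM. Igf2bp1, an mRNA-binding protein, led in germ cells with 143 and 62.6 CPM, as did Igfbpl1 and Stat5a. The protease Htra1, which also cuts binding proteins, had 110 and 73.2 CPM in myoid cells and 87.6 and 88.6 CPM in Sertoli cells, and the scavenger receptor Igf2r had 41.2 and 49.3 CPM in stroma. Igf2 had 6.70 and 6.64 CPM in stroma and less elsewhere. In GENCODE M21 another gene on the same strand, Gm49394, covers 62.8% of the exon bases of Igf2, and the annotation release behind the counts is not given in the sources used here, so the level of Igf2 is uncertain.

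Between the libraries none of these genes passed 1.5-fold in Sertoli cells (46 tested), myoid cells (45) or stroma (48). Of all genes 0.42%, 0.362% and 0.181% passed in these gates, so a count of 0 is near that share. Htra1 stayed just inside the limit in stroma, at 38.2 against 60.2 CPM (ratio 0.635, 0.593 to 0.681). In Leydig cells 2 of 40 passed, against 1.1% of all genes. Stc1, an inhibitor of the protease PAPPA, was lower at 38.3 against 75.4 CPM (ratio 0.508, 0.401 to 0.640). It is highest in myoid cells of wild type, at 90.9 CPM. Of the myoid markers in the Leydig gate, Tagln (0.388) and Myl9 (0.579) were lower too, while Des (0.898), Cnn1 (1.05) and Actg2 (1.45) had intervals that include 1. Their part in the Stc1 value was not tested. Socs2 was higher at 60.2 against 34.5 CPM (1.74, 1.36 to 2.24). Of the Sertoli genes in the Leydig gate, Amh (84.9 against 44.5 CPM), Cst9 (71.7 against 43.8 CPM) and Sox9 (25.7 against 15.9 CPM) were also higher, whereas the 6 Sertoli markers summed to 2244 against 2673 CPM, most of it Clu; their part in the Socs2 value was not tested. In macrophages 5 of 25 passed, 4 higher and 1 lower, where 14.6% of all genes did, with Socs2 at 101 against 24.6 CPM on 53 and 14 UMIs. There Cst9 (137 against 54.5 CPM) and Sox9 (76.2 against 15.8 CPM) were higher and Aard (57.1 against 118 CPM) was lower, the 6 Sertoli markers summed to 615 against 594 CPM, and their part was not tested. In germ cells 27 of 41 passed, 23 lower and 4 higher, in a gate where 53.3% of all genes passed. Ptpn1, Pik3ca and Foxo3 had 78.9, 85.6 and 68.0 CPM in wild type and 2.16, 4.32 and 2.16 CPM in the other library, on 1 or 2 UMIs each in the library labelled knockout. The 6 Sertoli markers were lower in the germ cell gate too, at 60.4 against 1077 CPM in sum, and their part was not tested. Grb10, an inhibitor of both receptors, was higher at 134 against 53.7 CPM (2.49, 1.85 to 3.31). It is highest in stroma, at 233 CPM in wild type, and the 5 stromal markers were higher in the germ cell gate too, at 393 against 249.9 CPM in sum (single ratios 0.933 to 4.22); their part was not tested.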

How the data were processed

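Testes at postnatal day 2 were profiled with a 3′ droplet kit. Per the labels, Cell Ranger 3.1.0, Seurat 3.1.5 and GRCm38 were used, and the deposited table holds raw UMI counts per gene and barcode, before the authors' filter on cells; the annotation release is not given in the sources used here. Suffix 3 was taken as wild type because suffix 4 holds 5423 barcodes, fewer than the wild-type cells the study kept; CRE gave 0 UMIs in suffix 3 and 20 in suffix 4. Libraries held 84263163 and 67558106 UMIs. UMIs were summed per gate and library and scaled to CPM. Intervals are 95% (Poisson for sums, conditional binomial for ratios, Clopper-Pearson for shares) and cover counting error only, and no test was possible with 1 library per genotype. Cells were thinned to 5000 UMIs with a fixed seed, which left out 97 and 68 shallower cells. Doublets (Scrublet in scanpy 1.11.5, 284 and 296 calls) were kept in the main values. Calls and intervals were tested on simulated sums. The genes, gates and pathway list were chosen with earlier results of these data known. Besides the 9 genes, those named include the 3 most alike to each and the pathway genes highest in their role. Some genes over 1.5-fold with at least 50 UMIs are named too, and others past that limit are not. Pathway genes with a leading type, Igf2, Stat5a, Igfbpl1, Adam12 and Grb2 among them, were added after their values were seen. The tools were SciPy 1.17.1, pandas 2.3.3, NumPy 2.4.6 and Python 3.11.15. Alternatives were other limits on genes (1000) and mitochondrial UMIs (5%), cells of 1 gate, doubled gate thresholds, doublet removal, other scalings, thinning, pseudocounts of 1 and 50 CPM, another fold and other UMI minimums.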

Additional observations from a re-analysis of the deposited data

Results flagged for a closer look

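For some genes the ratio of the library labelled knockout over wild type lay above 1 in 1 cell type and below 1 in another. This held with the counting intervals for Igf1, Igf1r, Igfbp3, Igfbp4 and Igfbp7. How many of all genes do so was not counted, and with large UMI sums ratios close to 1 meet this rule too. Whether the types differ was not tested, since each genotype is 1 library. Igf1 was at 1.57 in Sertoli cells and 0.911 in myoid cells; in myoid cells of 1 gate only (54 and 25 cells) it was 200.6 CPM in wild type and 267 CPM with the knockout label, the other direction. Igf1r was at 1.16 in myoid cells and 1.11 in stroma but 0.210 in germ cells. Igfbp3 was at 1.27 in stroma, 0.824 in Sertoli cells and 0.601 in Leydig cells; Leydig cells of 1 gate only held 5.83 CPM in wild type and 7.32 CPM with the knockout label, on 11 and 13 UMIs, again the other direction. Igfbp4 was at 1.23 in Sertoli cells, 1.11 in myoid cells and 1.02 in stroma but 0.652 in macrophages. Igfbp7 was at 1.20 in Sertoli cells, 0.841 in Leydig cells and 0.949 in stroma.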

How the results depend on the processing

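Each genotype is 1 library, so intervals cover counting error and not the spread between animals; the gates overlap, and the macrophage and germ cell gates are small. No paired analysis was possible because the barcodes cannot be tied to the numbered libraries, and for the same reason leaving out numbered libraries was not run. Of 432 log2 ratios between the libraries under 8 alternatives, 366 stayed within the counting interval of the main value and 66 did not, and none of the 4 ratios past the limit changed sign. Igf1r in germ cells and Igfbp5 as the gene led by myoid cells were called under all 14 settings. The counts of the 9 genes past the limit that moved by over 1.5 times are given here out of those tested, with the share of all genes past the limit under the same setting in brackets, and the cause was not tested. With at most 5% mitochondrial UMIs, Leydig cells had 2 of 9 (10.6%), macrophages 2 of 7 (14.9%), germ cells 4 of 9 (59.8%) and the leading type 2 of 9 (7.15%). With cells of 1 gate, Sertoli cells had 1 of 9 (0.28%), Leydig cells 0 of 8 (1.94%), macrophages 2 of 3 (20.1%), germ cells 4 of 6 (60.8%), the leading type 2 of 9 (9.94%) and cycling stroma 1 of 9 (5.32%). With doubled gate thresholds, Sertoli cells had 1 of 9 (0.42%), macrophages 0 of 6 (14.6%) and cycling stroma 1 of 9 (5.21%). Without doublets, Leydig cells had 0 of 9 (1.51%) and macrophages 3 of 6 (15.8%). With CPM outside ribosomal protein and mitochondrial genes, Sertoli cells had 1 of 9 (0.621%). After thinning, germ cells had 4 of 6 (67.7%) and the stromal subsets 5 of 9 (8.88%). With a pseudocount of 1 CPM, Sertoli cells had 3 of 9 (4.32%), Leydig cells 2 of 9 (8.89%), macrophages 3 of 7 (21.5%) and germ cells 5 of 9 (68.8%). With 50 CPM, Leydig cells had 0 of 9 (0.151%), macrophages 0 of 7 (2.6%), germ cells 1 of 9 (21.4%) and cycling stroma 1 of 9 (2.05%). With a fold of 2 (1.5 for the leading type), Leydig cells had 0 of 9 (0.196%), macrophages 0 of 7 (2.97%), cycling stroma 0 of 9 (2.37%), germ cells 1 of 9 (28.3%) and the leading type 3 of 9 (15.5%). In germ cells the count went from 2 to 3 with CPM outside ribosomal protein and mitochondrial genes and with equal weight per cell, and with doubled thresholds or without doublets Igf1 took the place of Igfbp3.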
